A study of Bos taurus with 48 samples.

Results

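Macrophage and myeloid markers were followed in the endometrium of pregnant and cyclic cows. The 9 genes CD68, CD163, CSF1R, CSF1, FCGR1A, AIF1, MRC1, CYBB and ITGAM were each represented by 1 probe on the array, found by the symbol in its gene name or description except for FCGR1A. Of these 9 probes, 7 were bright enough in the samples to be tested, among 14717 tested probes in all, and the CSF1 and ITGAM probes were not. The probe counted as FCGR1A carried the older name FCGR1, and its accession named FCGR1A in the reference gene table. The probe described as CYBB carried a gene number that the same table gave to PIP4K2A. Which of these 2 transcripts it read was not determined here, and CYBB below means this probe. The MRC1 probe was designed on an expressed sequence tag.

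Cows are named as in the sample labels, where cyclic cows are called non-pregnant. The animals were 22 lactating dairy cows with synchronised oestrous cycles, all sampled at slaughter on day 17 of the cycle. The 12 pregnant cows had received an embryo by transfer on day 7, and the 10 cyclic cows had not. From each cow, caruncular endometrium (the aglandular sites where the placenta later attaches) and intercaruncular endometrium (the glandular tissue between them) were taken, giving 44 samples. The labels divided the pregnant cows by the size of the recovered embryo into 7 large and 5 small, and by a fertility label into 6 fertile and 6 sub-fertile. Among large embryos 3 cows were fertile and 4 sub-fertile, and among small embryos 3 were fertile and 2 sub-fertile. Every sample was whole tissue, so each value averages all the cell types present. The median signal over background of the arrays was 22.9 and 21.9 in caruncular tissue of pregnant and cyclic cows and 15.4 and 11.7 in intercaruncular tissue. The number of arrays limits the precision of all values.

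Macrophages and monocytes belong to the mononuclear phagocyte lineage, whose survival and differentiation depend on the receptor CSF1R and its ligand CSF1. CD68 is a glycoprotein of their lysosomes, CD163 takes up haptoglobin bound to haemoglobin, and MRC1 is the mannose receptor, both of the latter being common on tissue-resident cells. FCGR1A is the high-affinity receptor for immunoglobulin G and a classical interferon response gene, AIF1 is a calcium-binding protein of the macrophage cytoskeleton, CYBB is the catalytic subunit of the phagocyte NADPH oxidase, and ITGAM is the alpha chain of the integrin that also serves as a complement receptor. In ruminants the elongating conceptus secretes interferon tau around this time, and the endometrium holds resident macrophages in its stroma.

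Values are log2 ratios of the sample to a pool of RNA from all samples, so 0 is the level of the pool, and levels of different probes cannot be set against each other. Pregnant and cyclic cows were compared within a tissue by limma, and a probe was called when it differed at least 1.5-fold with a Benjamini-Hochberg adjusted p under 0.05 over all tested probes. The 7 tested probes were well above background on all 48 arrays. For the 4 samples hybridised on 2 arrays, the repeat arrays differed by at most 0.26 in any tested marker, and that largest difference was in FCGR1A. More cells of a type and more RNA per cell cannot be told apart in such samples, nor can fewer cells and less RNA per cell.

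The probes are printed for the 4 markers with the largest called differences between pregnant and cyclic cows in caruncular tissue, since each value below is the binding to that stretch alone. All 4 are designed oligonucleotides of 60 bases, given 5′ to 3′, and where they lie in their transcripts was not determined here. Their content of G and C was 35.0% for AIF1 and CYBB, 36.7% for FCGR1A and 38.3% for CSF1R. For CYBB the sequence also allows a reader to settle the name.
FCGR1A: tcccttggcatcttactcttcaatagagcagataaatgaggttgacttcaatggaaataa
AIF1: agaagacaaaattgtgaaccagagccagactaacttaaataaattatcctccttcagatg
CYBB: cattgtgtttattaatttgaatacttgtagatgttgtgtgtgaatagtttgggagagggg
CSF1R: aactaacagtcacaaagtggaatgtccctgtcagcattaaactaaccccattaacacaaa

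**Figure D1:**
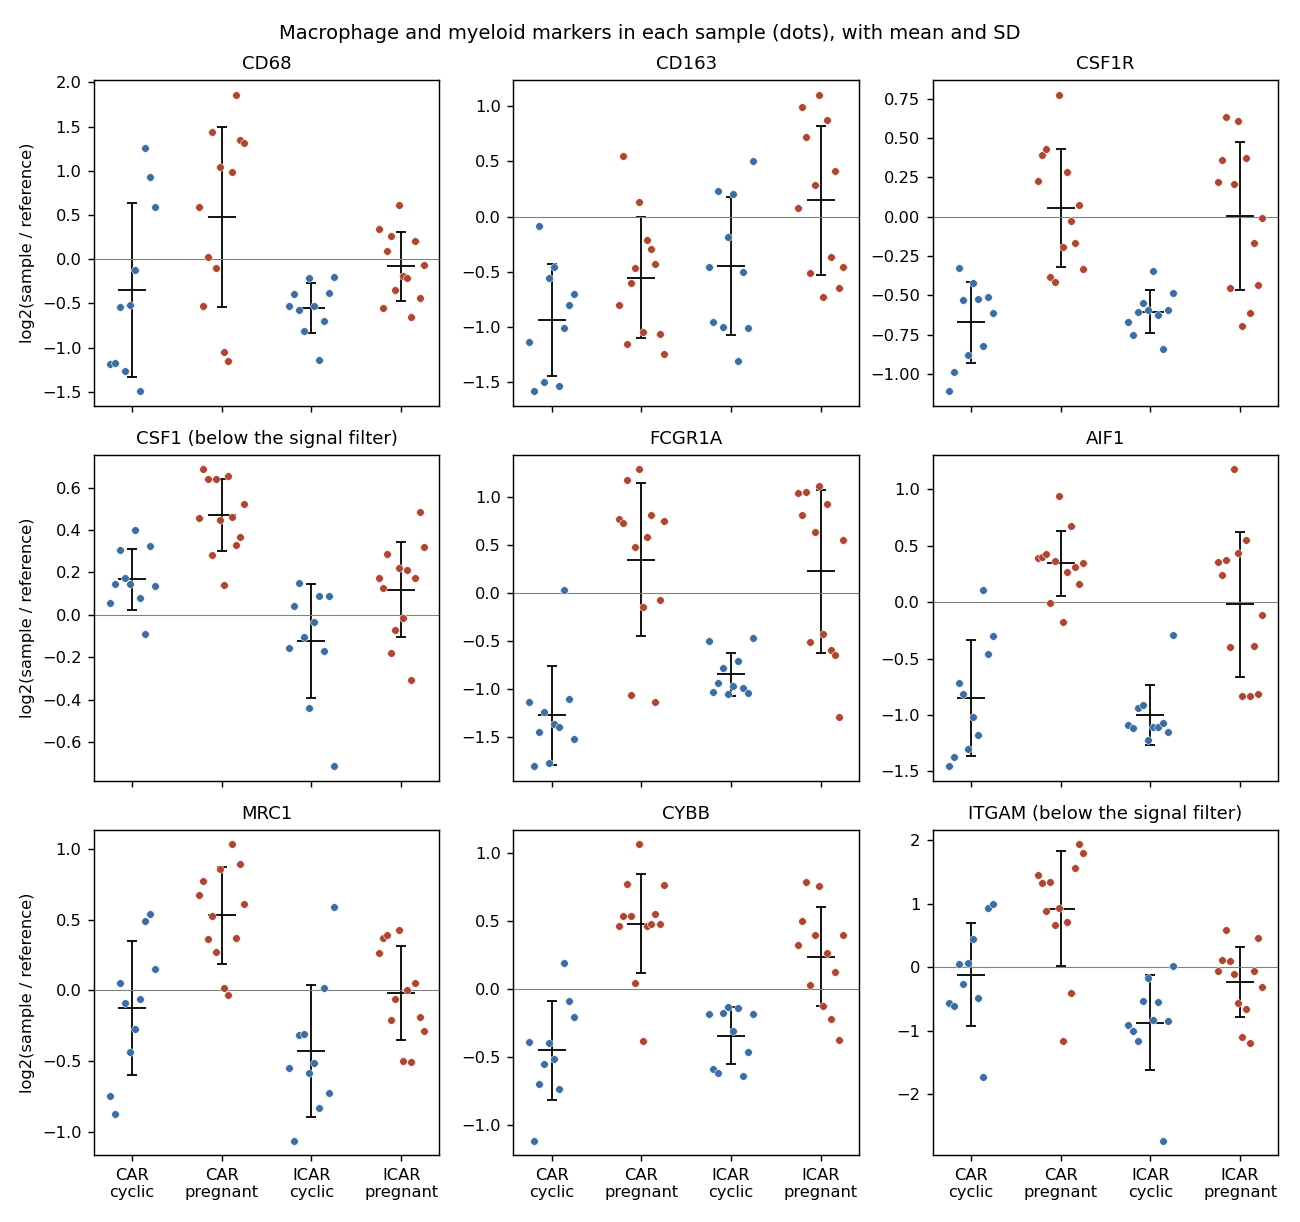
Each dot is 1 sample, with the log2 ratio of sample to pooled reference on the vertical axis and the 4 groups of tissue and state on the horizontal axis (CAR, caruncular; ICAR, intercaruncular; blue, 10 cyclic cows; red, 12 pregnant cows). Long ticks and bars are the group mean and SD. AIF1 in caruncular tissue ran from -1.45 to 0.10 in cyclic and from -0.17 to 0.94 in pregnant cows, whereas CD68 in the same tissue spread from -1.49 to 1.25 in cyclic cows alone.

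The receptor of the lineage, CSF1R, was higher in pregnant cows in both tissues. In caruncular tissue its lowest, median and highest values were -1.11, -0.57 and -0.33 in cyclic cows and -0.42, 0.02 and 0.78 in pregnant cows. The ranges overlapped at their ends, and 9 of 12 pregnant cows lay above every cyclic cow. In intercaruncular tissue the values were -0.84, -0.60 and -0.35 in cyclic cows against -0.69, 0.10 and 0.64 in pregnant cows, of which 8 lay above every cyclic cow. The cyclic cows were closely grouped there (SD 0.14) while the pregnant cows were spread (SD 0.47). The difference was 0.73 (SE 0.14, adjusted p = 0.000494) or 1.65-fold in caruncular tissue and 0.61 (SE 0.15, adjusted p = 0.00618) or 1.52-fold in intercaruncular tissue. The second value lay close to the 1.5-fold limit and fell below it, at 0.55 to 0.58, when cow Pregnant_3803, Pregnant_3805, Pregnant_3957, Pregnant_926 or Non-Pregnant_9786 was left out.

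CSF1, the ligand, was close to the limit of measurement. Its probe was well above background on 12 of 13 arrays of cyclic and 11 of 13 of pregnant cows in caruncular tissue, and on 6 of 10 and 9 of 12 in intercaruncular tissue, but the samples past the filter on signal were 3 of 10 and 5 of 12 in the former and 1 of 10 and 2 of 12 in the latter. The caruncular values were -0.09, 0.14 and 0.40 in cyclic and 0.14, 0.46 and 0.69 in pregnant cows, and the intercaruncular values -0.71, -0.07 and 0.15 against -0.31, 0.17 and 0.49. Without the filter on signal the difference was 0.30 (SE 0.07, adjusted p = 0.00342) in caruncular tissue, which is 1.23-fold, and 0.24 (SE 0.10, adjusted p = 0.123) in intercaruncular tissue. Neither reached 1.5-fold.

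FCGR1A had the largest difference of the 7 tested markers in both tissues. In caruncular tissue the lowest, median and highest values were -1.80, -1.39 and 0.03 in cyclic cows and -1.13, 0.66 and 1.29 in pregnant cows. The cyclic value of 0.03 belonged to cow Non-Pregnant_9786 and stood well apart from the next, -1.11, and 4 pregnant cows (Pregnant_977, Pregnant_3807, Pregnant_9246 and Pregnant_9790) lay below it. In intercaruncular tissue the values were -1.06, -0.95 and -0.47 in cyclic cows and -1.29, 0.60 and 1.12 in pregnant cows, and pregnant cow Pregnant_9790 had the lowest value of all 22. The difference was 1.63 (SE 0.28, adjusted p = 0.000205), or 3.09-fold, in caruncular tissue, where 8 of 12 pregnant cows exceeded the highest cyclic cow and all 12 the cyclic mean. In intercaruncular tissue it was 1.07 (SE 0.26, adjusted p = 0.00614), or 2.10-fold, and again 8 of 12 exceeded the highest cyclic cow.

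AIF1 was higher in pregnant cows in both tissues. The lowest, median and highest caruncular values were -1.45, -0.92 and 0.10 in cyclic and -0.17, 0.36 and 0.94 in pregnant cows, and 10 of 12 pregnant cows lay above every cyclic cow. In intercaruncular tissue the values were -1.22, -1.09 and -0.29 against -0.83, 0.06 and 1.18, and 7 of 12 lay above every cyclic cow. The difference was 1.19 (SE 0.17, adjusted p = 1.87e-05), or 2.29-fold, in caruncular tissue and 0.98 (SE 0.21, adjusted p = 0.00215), or 1.97-fold, in intercaruncular tissue. All 12 pregnant cows exceeded the cyclic mean in each tissue.

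The CYBB probe ran from -1.12 through a median of -0.46 to 0.19 in caruncular tissue of cyclic cows and from -0.38 through 0.51 to 1.06 in that of pregnant cows. Of the 12 pregnant cows, 10 lay above every cyclic cow and cow Pregnant_9246 gave the low value of -0.38. In intercaruncular tissue the values were -0.64, -0.25 and -0.13 in cyclic and -0.38, 0.30 and 0.79 in pregnant cows, and again 10 of 12 exceeded the highest cyclic cow. The caruncular difference was 0.93 (SE 0.15, adjusted p = 0.000115), or 1.91-fold. In intercaruncular tissue it was 0.58 (SE 0.13, adjusted p = 0.00304), which at 1.496-fold fell just short of the fold required and was not called. When each cow in turn was left out there, the value ran from 0.53 to 0.64 and passed the limit in 11 of 22 cases. These were the cases without cow Non-Pregnant_1940, Non-Pregnant_2970, Pregnant_3807, Non-Pregnant_3811, Non-Pregnant_3972, Pregnant_9246, Pregnant_932, Pregnant_977, Non-Pregnant_9778, Pregnant_9790 or Non-Pregnant_9960, the last of these giving 0.60 and the case without Pregnant_9790 giving 0.64.

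The lysosomal marker CD68 was not called in either tissue. In caruncular tissue it was -1.49, -0.53 and 1.25 at its lowest, median and highest in cyclic cows and -1.15, 0.79 and 1.86 in pregnant cows, of which 4 exceeded the highest cyclic cow. The caruncular difference of 0.83 (SE 0.41, adjusted p = 0.131) was not called and its 95% confidence interval ran from -0.0087 to 1.67. In intercaruncular tissue the values were tighter, at -1.14, -0.53 and -0.20 against -0.65, -0.13 and 0.61. The difference there was 0.47 (SE 0.14, adjusted p = 0.0237), or 1.38-fold, below the fold required. The SD within groups was 0.98 in cyclic and 1.02 in pregnant cows in caruncular tissue, more than the difference between them, and 0.28 and 0.39 in intercaruncular tissue.

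CD163, the haemoglobin scavenger, was not called in either tissue. Its caruncular values were -1.58, -0.91 and -0.08 in cyclic and -1.24, -0.53 and 0.55 in pregnant cows, and its intercaruncular values -1.30, -0.48 and 0.50 against -0.73, 0.18 and 1.10. The groups overlapped widely, and 2 and 4 of 12 pregnant cows lay above every cyclic cow. The differences were 0.38 (SE 0.22, adjusted p = 0.192) and 0.59 (SE 0.26, adjusted p = 0.111). A further 4 probes were described as isoforms of CD163 without matching its symbol, and none of them was bright enough to be tested.

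MRC1, the mannose receptor, was called in caruncular tissue. Its values there were -0.87, -0.08 and 0.54 in cyclic and -0.03, 0.57 and 1.03 in pregnant cows, and 6 of 12 lay above every cyclic cow. The difference was 0.65 (SE 0.17, adjusted p = 0.00602), or 1.57-fold, and it fell below 1.5-fold without cow Non-Pregnant_1940 (0.58) or cow Non-Pregnant_1950 (0.57). In intercaruncular tissue the values were -1.06, -0.53 and 0.59 against -0.50, -0.03 and 0.42. The highest value there was that of cyclic cow Non-Pregnant_9960, so no pregnant cow lay above every cyclic cow, and the difference of 0.41 (SE 0.16, adjusted p = 0.0797) was not called.

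ITGAM was well above background on the fewest arrays of the 9 markers. Its probe was well above background on 5 of 13 arrays of cyclic and 10 of 13 of pregnant cows in caruncular tissue, on 3 of 12 arrays of pregnant cows in intercaruncular tissue and on 0 of 10 of cyclic cows, where it was thus not well above background. Caruncular values were -1.73, -0.11 and 0.99 in cyclic and -1.17, 1.13 and 1.93 in pregnant cows. Without the filter on signal the caruncular difference was 1.04 (SE 0.36, adjusted p = 0.0475), and 6 of 12 pregnant cows exceeded the highest cyclic cow. This passed the threshold, but with so many arrays near background its size is uncertain. Against the intercaruncular cyclic cows no firm size can be given. Means were taken from the sample channel after background correction with an offset of 50 and loess. The arrays were then scaled to a common average intensity. These means are open to dye bias since no dyes were swapped, and the offset shrinks folds between dim signals. The measured mean was 1.24-fold higher in intercaruncular tissue of pregnant cows and 1.26-fold higher in caruncular tissue of cyclic cows. The brighter groups were themselves mostly near background, so these folds between measured means are neither exact nor a bound. As log2 ratios to the pool without the filter, limma gave these differences as 0.64 (SE 0.27, adjusted p = 0.117) and 0.76 (SE 0.34, adjusted p = 0.0847). Neither passed the threshold.

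Of the 7 tested markers, 5 (CSF1R, FCGR1A, AIF1, MRC1 and CYBB) were called higher in pregnant cows in caruncular tissue, where 5.78% of all tested probes were called higher. In intercaruncular tissue 3 (CSF1R, FCGR1A and AIF1) were called higher, against 4.01% of all tested probes. The median difference was 0.83 over the tested markers and -0.04 over all tested probes in caruncular tissue, while these medians were 0.59 and -0.01 in intercaruncular tissue. No marker was lower in pregnant cows in either tissue, while 622 of 14717 tested probes were called lower in caruncular and 481 of 14715 in intercaruncular tissue. Both tissues came from the same cows, and each comparison used its own tissue alone.

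**Figure D2:**
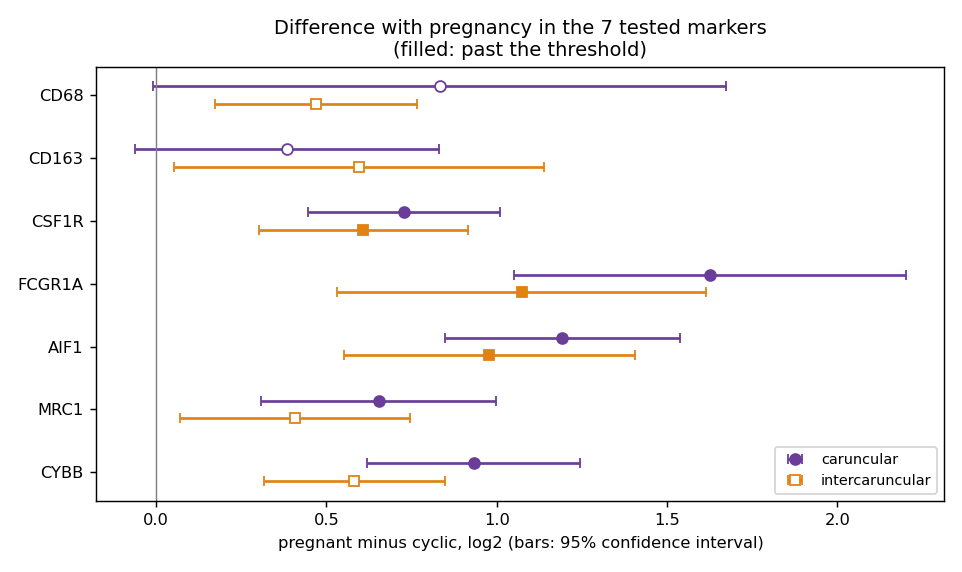
The horizontal axis is the difference between pregnant and cyclic cows in log2 units, with 95% confidence intervals, for the 7 tested markers in caruncular (circles) and intercaruncular (squares) endometrium of 12 pregnant and 10 cyclic cows. Filled symbols passed the threshold of 1.5-fold and adjusted p under 0.05, 5 in caruncular and 3 in intercaruncular tissue, and the interval of CD68 in caruncular tissue was the widest.

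Slides held 4 arrays each and most held 1 state, so slide and state were nearly confounded. Pregnant and cyclic cows met within a tissue on 3 slides. On the caruncular slide with 3 pregnant cows and cyclic cow Non-Pregnant_3972, pregnant minus cyclic was 1.51 for FCGR1A, 1.27 for AIF1, 1.13 for CYBB, 0.91 for MRC1, 0.86 for CD68, 0.32 for CSF1R and 0.03 for CD163. On the intercaruncular slide with the same cows it was 1.25 for FCGR1A, 1.02 for AIF1, 0.62 for CYBB, 0.47 for MRC1, 0.41 for CD68, 0.31 for CSF1R and -0.19 for CD163. On another slide, with caruncular arrays of pregnant cows Pregnant_926 and Pregnant_9790 and cyclic cow Non-Pregnant_9960, FCGR1A differed by 1.88, CSF1R by 0.72, CYBB by 0.70, AIF1 by 0.49, MRC1 by 0.20, CD163 by 0.05 and CD68 by -0.50. The arrays of cows Pregnant_926 and Non-Pregnant_9960 there were repeats of samples that also lay on other slides. With slide as a fixed block the estimate rested on the single cyclic cow Non-Pregnant_3972 and no marker was called by limma in either tissue, the lowest adjusted p being 0.286 for AIF1 in caruncular tissue (range over its alternatives 1.46e-06 to 0.286). That fit called 58 probes in caruncular and 129 in intercaruncular tissue, with 1447 and 1734 at an unadjusted p under 0.05. With slide as a random block all 5 caruncular calls held, whereas CSF1R in intercaruncular tissue did not (0.55, adjusted p = 0.0747, range over its alternatives 0.00188 to 0.822).

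The arrays were also scanned in 3 sessions. Among the 11 pregnant and 9 cyclic caruncular samples of the second session, the differences were 1.77 for FCGR1A, 1.33 for AIF1, 0.99 for CYBB, 0.93 for CD68, 0.73 for CSF1R, 0.70 for MRC1 and 0.42 for CD163. Among the 11 and 9 intercaruncular samples of the first session they were 1.20 for FCGR1A, 1.04 for AIF1, 0.66 for CD163, 0.62 for CSF1R, 0.60 for CYBB, 0.48 for CD68 and 0.47 for MRC1. In the third session, with 2 pregnant and 4 cyclic caruncular arrays, FCGR1A differed by 1.34, CSF1R by 0.75, CYBB by 0.70, AIF1 by 0.62, CD163 by 0.38, MRC1 by 0.11 and CD68 by -0.22. Of these 6 arrays 4 were repeats of samples counted in the second session, so the sessions were not separate sets of cows. The same session held 1 pregnant and 1 cyclic intercaruncular sample, of cows Pregnant_9790 and Non-Pregnant_9786. There the difference was 0.41 for CSF1R, 0.26 for CD68, AIF1 and CYBB, -0.14 for CD163, -0.21 for MRC1 and -0.30 for FCGR1A.

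Whether pregnancy acted differently in the 2 tissues was tested as the difference between the caruncular and intercaruncular effects. No marker was called by limma, and 0.0204% of all tested probes, 3 in number, were. At an unadjusted p under 0.05 there were 1085 probes and 0 of the 7 markers. The largest such difference was 0.55 for FCGR1A (SE 0.39, 95% confidence interval -0.24 to 1.34), and that of CYBB was 0.35 (SE 0.20, interval -0.05 to 0.76). A marker that was called in one tissue and not in the other was therefore not shown to differ between them. Samples of the same cow deviated from their group means together, and with cow as a fixed block in this test limma called 152 probes, and 2542 had an unadjusted p under 0.05, FCGR1A and CYBB among them. None of the markers was called, the adjusted p being 0.236 for FCGR1A (0.236 to 0.919 over its alternatives) and 0.261 for CYBB (0.206 to 0.841).

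Caruncular and intercaruncular tissue were compared within each state. In cyclic cows no marker was called by limma, against 12.3% of all tested probes in either direction, and 0 of the 7 had an unadjusted p under 0.05, as 6645 probes did. In pregnant cows CD163 was lower in caruncular tissue by 0.70 (SE 0.24, adjusted p = 0.0136), the 1 marker called of 7, against 17.0% of tested probes. CD163 was lower in the caruncular sample of 11 of 12 pregnant cows and of 9 of 10 cyclic cows. In cyclic cows its difference was -0.49 (SE 0.26, adjusted p = 0.136), and with cow as a block the adjusted p was 0.00448 (0.00448 to 0.161 over its alternatives), below 1.5-fold. That block gave 3 of the 7 markers in cyclic cows (CD163, FCGR1A and MRC1) an unadjusted p under 0.05, as it did 8892 probes, and none of the 3 reached 1.5-fold. In pregnant cows it gave 5 of the 7 (CD68, CD163, AIF1, MRC1 and CYBB) such a p, as it did 9725 probes, and CD163 remained the only one called. MRC1 ran the other way and was higher in caruncular tissue of 10 of 12 pregnant cows by 0.55 (SE 0.16, adjusted p = 0.00454), or 1.46-fold, below the fold required. Caruncular and intercaruncular samples lay almost wholly on different slides, so tissue and slide cannot be told apart except in cows Pregnant_9790 and Non-Pregnant_9786, whose 2 tissues shared a slide. On those slides caruncular minus intercaruncular was -0.42 and -0.51 for CD163, 1.08 and 0.47 for MRC1, 1.78 and 1.95 for CD68, and 1.22 and 1.03 for FCGR1A, with the pregnant cow first. AIF1 gave 0.97 and 1.18 there, CYBB 0.86 and 0.83, and CSF1R 0.50 and 0.02. For CD68, FCGR1A and CYBB these cows lay far from the medians of their states, as did the cyclic cow for AIF1. The medians of AIF1 were 0.43 in pregnant and 0.04 in cyclic cows, and those of CYBB 0.25 and -0.21. FCGR1A was higher in caruncular tissue in 1 of 10 cyclic cows, namely Non-Pregnant_9786, and in 6 of 12 pregnant cows (medians -0.57 and 0.02). CD68 was so in 5 and 9 (medians -0.13 and 0.34), and cows Non-Pregnant_9786 and Pregnant_9790 had the largest difference of each state.

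In order of group medians, FCGR1A and AIF1 had both pregnant groups above both cyclic groups, as did CSF1R, CYBB, CD68 and, by a narrow margin, MRC1. CD163 was arranged otherwise, with intercaruncular tissue of pregnant cows highest (0.18), then that of cyclic cows (-0.48) and caruncular tissue of pregnant cows (-0.53), and caruncular tissue of cyclic cows lowest (-0.91). The middle pair was closer than the SD within either group, 0.62 and 0.55. For MRC1 the order was caruncular pregnant (0.57), intercaruncular pregnant (-0.03), caruncular cyclic (-0.08) and intercaruncular cyclic (-0.53), and again the middle pair lay within the spread of each group.

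Embryo size was compared among the pregnant cows, large against small. In caruncular tissue limma called no probe at all (0%), with 1020 probes and 3 markers at an unadjusted p under 0.05. CSF1R ran from -0.33 through 0.28 to 0.78 with large and from -0.42 through -0.19 to -0.03 with small embryos, and 6 of 7 cows with a large embryo lay above every cow with a small one. Its difference was 0.50 (SE 0.16, adjusted p = 0.639). FCGR1A ran from -0.07 through 0.75 to 1.29 against -1.13 through -0.15 to 0.81, a difference of 0.96 (SE 0.35, adjusted p = 0.667), and CYBB differed by 0.40 (SE 0.17, adjusted p = 0.701). CD68, CD163, AIF1 and MRC1 differed by -0.25, 0.02, 0.18 and 0.15. With each cow left out in turn, AIF1 ran from 0.08 to 0.29, MRC1 from 0.04 to 0.30 and CYBB from 0.25 to 0.48. None of these passed adjustment over all tested probes.

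In intercaruncular tissue 545 probes were called by embryo size (3.70% of those tested), and 0 of the 7 markers. At an unadjusted p under 0.05 there were 3169 probes and 3 markers, and limma gave these CSF1R 0.60 (SE 0.20, adjusted p = 0.114), FCGR1A 0.91 (SE 0.39, adjusted p = 0.202) and MRC1 0.38 (SE 0.16, adjusted p = 0.177). FCGR1A ran from -1.29 through 0.93 to 1.12 with large and from -0.64 through -0.51 to 0.63 with small embryos. Its lowest value with a large embryo belonged to cow Pregnant_9790, and the next was 0.56. Its highest with a small embryo belonged to cow Pregnant_3956, and the next was -0.43. Without cow Pregnant_9790, 3 markers were called, namely FCGR1A at 1.23 (adjusted p = 0.0065), CSF1R at 0.71 (adjusted p = 0.0225) and CYBB at 0.47 (adjusted p = 0.042). The calls over all probes rose in that fit as well, from 545 to 1878 of 14717, whereas without any 1 of the other cows they ran from 34 (without cow Pregnant_932) to 644. Over all leave-one-out fits the adjusted p ran from 0.0065 to 0.365 for FCGR1A, from 0.0225 to 0.253 for CSF1R and from 0.042 to 0.539 for CYBB. With slide as a fixed block FCGR1A was called at 1.06 (adjusted p = 0.0177), and the other 6 were not, while 1088 of 14717 probes were called. Cow Pregnant_9790 was the only pregnant cow with an intercaruncular array on its slide, so that block also takes it out of the estimate and is no separate support.

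Both sizes of embryo met on 6 slides, 3 for each tissue. Large minus small was positive for FCGR1A on all 6, at 0.40, 1.33 and 1.81 in caruncular and 1.61, 1.20 and 0.40 in intercaruncular tissue. CSF1R was positive on all 6 as well, at 0.84, 0.56 and 0.41 and at 1.13, 0.63 and 0.19. CYBB likewise gave 0.63, 0.56 and 0.11 in caruncular and 0.86, 0.42 and 0.06 in intercaruncular tissue. AIF1 gave 0.19, 0.16 and 0.38 on the caruncular slides and 1.06, 0.46 and -0.73 on the others, the last from the slide that held cow Pregnant_3956. CD163 gave 0.16, -0.57 and 0.26 and then 0.94, 0.77 and 0.40, and MRC1 0.24, -0.11 and 0.17 and then 0.71, 0.25 and 0.29, so each was negative on 1 slide. CD68 ran in both directions on these slides, from -1.04 to 0.59. The 3 slides of a tissue held 4, 4 and 3 pregnant cows, and each comparison within one rested on 1 cow of at least one size.

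**Figure D3:**
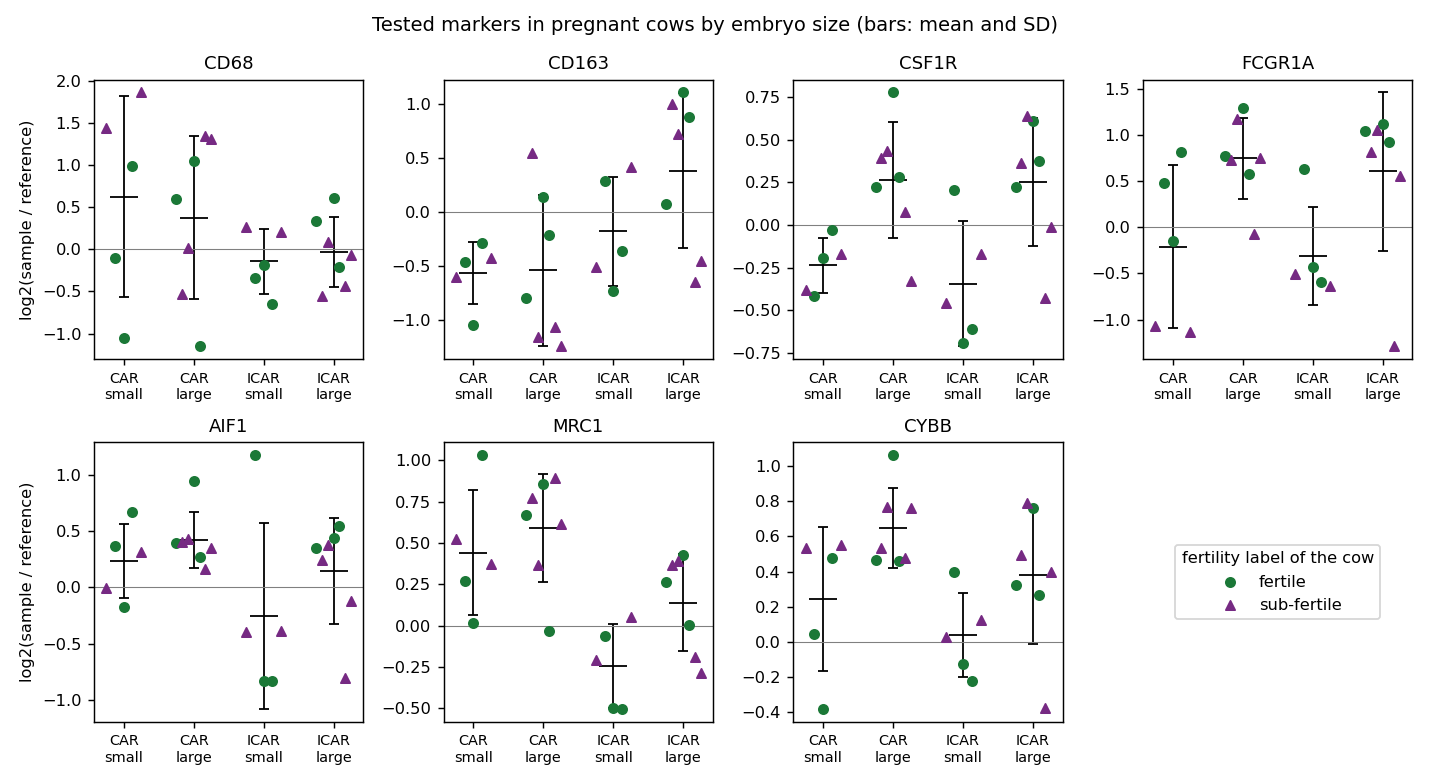
Each symbol is 1 pregnant cow, with the log2 ratio of sample to pooled reference on the vertical axis and tissue by embryo size on the horizontal axis (5 cows with a small and 7 with a large embryo in each tissue; CAR, caruncular; ICAR, intercaruncular). Circles are fertile and triangles sub-fertile cows, and bars show the mean and SD. In the FCGR1A panel the triangle at -1.29 in the last column is cow Pregnant_9790.

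By fertility label the markers were not called in either tissue. In caruncular tissue limma called 0 probes (0%) with 2026 at an unadjusted p under 0.05, and in intercaruncular tissue 7 (0.0476%) with 2001, and 0 of the 7 markers were among any of these sets. Fertile minus sub-fertile was largest for CD68 in caruncular tissue, at -0.85 (SE 0.50, 95% confidence interval -1.94 to 0.23), where values ran from -1.15 through 0.25 to 1.05 in fertile and from -0.53 through 1.33 to 1.86 in sub-fertile cows. FCGR1A differed by 0.57 (SE 0.40, interval -0.31 to 1.44) in caruncular and 0.45 (SE 0.44, interval -0.51 to 1.42) in intercaruncular tissue. The other values lay between -0.25 and 0.21 in caruncular and between -0.08 and 0.32 in intercaruncular tissue. With slide as a fixed block CSF1R, AIF1 and MRC1 changed sign in caruncular tissue, and CD68, CD163, CSF1R, FCGR1A and AIF1 in intercaruncular tissue. In each tissue these estimates rested on 1 slide with 2 fertile and 2 sub-fertile cows. ITGAM, outside the filter on signal and well above background on 4 of 7 caruncular arrays of fertile cows, differed by -1.11 there (SE 0.41, adjusted p = 0.322 without the filter) and was not called.

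The markers were also set out cow by cow. In caruncular tissue the number of the 7 tested markers above every cyclic cow ran from 1 in cow Pregnant_9246 to 6 in cows Pregnant_3803 and Pregnant_3957, and in intercaruncular tissue from 0 in cows Pregnant_932 and Pregnant_9790 to 6 in cows Pregnant_3805 and Pregnant_3957. The mean of the 7 markers above the cyclic mean was 0.24 to 1.54 in caruncular tissue, lowest in cow Pregnant_9246, and 0.0054 to 1.33 in intercaruncular tissue, lowest in cow Pregnant_9790, and in each tissue it was highest in cow Pregnant_3957. Cow Pregnant_932 stood at 1.19 in caruncular and 0.06 in intercaruncular tissue. The mean of 12 interferon response genes above the cyclic mean ran from 2.44 to 4.82 in caruncular and from 1.55 to 3.59 in intercaruncular tissue. In the intercaruncular sample of cow Pregnant_9790 the interferon response genes stood 3.20 above the cyclic mean beside 0.0054 for the markers, and in that of cow Pregnant_977 they stood 1.55 above it beside 0.55 for the markers. The other intercaruncular samples follow, with interferon genes first and markers second. Cow Pregnant_1943 stood at 3.59 and 0.98, Pregnant_926 at 3.48 and 1.00, Pregnant_3956 at 3.46 and 0.93, and Pregnant_3805 at 3.31 and 1.18. Cow Pregnant_9921 stood at 3.08 and 0.61, Pregnant_3957 at 3.03 and 1.33, and Pregnant_3803 at 2.59 and 0.99. Cow Pregnant_932 stood at 2.18 and 0.06, Pregnant_3807 at 1.93 and 0.35, and Pregnant_9246 at 1.76 and 0.10.

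The interferon response genes were given beside the markers because FCGR1A is one of the genes that interferon induces. All 12 that could be tested were called higher in pregnant cows in both tissues, with a median difference of 3.63 in caruncular and 2.61 in intercaruncular tissue. The brightest, MX1, differed by 3.28 (SE 0.21, adjusted p = 6.88e-11) and 2.50 (SE 0.17, adjusted p = 2.63e-10). The summed sample signal of this list ran from 42697 through a median of 58448 to 78196 in caruncular tissue of cyclic cows and from 155785 through 357472 to 568509 in that of pregnant cows. In intercaruncular tissue it ran from 41373 through 57282 to 58708 against 122324 through 263567 to 400969. For the 9 markers the summed signal had medians of 18280 and 30012 in caruncular and 15666 and 25223 in intercaruncular tissue, and CSF1R was the brightest probe. Summed signals here and below were not scaled between arrays, and the brightest probes weigh most in them. Signal over background was higher on intercaruncular arrays of pregnant than of cyclic cows, as given above. With embryo size all 12 interferon genes had positive differences in both tissues, with a median of 0.55 in caruncular tissue, where 0 were called, and 1.08 in intercaruncular tissue, where 1 was called. By limma 2 of them in caruncular and 11 in intercaruncular tissue had an unadjusted p under 0.05. The shares of all tested probes were 6.93% and 21.5%. By fertility label, fertile minus sub-fertile was positive for all 12 in caruncular tissue (median 0.86) and for 10 in intercaruncular tissue (median 0.33), with 8 and 0 of them at an unadjusted p under 0.05 and 0 called in either. Of all tested probes 13.8% and 13.6% had such a p by fertility label. The part of interferon in the marker differences was not tested.

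Further genes of the macrophage lineage were taken from lists by role. In the CSF1 axis and the regulators of the lineage, 1 of 4 tested genes was called higher in each tissue, with medians of 0.30 in both. SPI1, which encodes the master transcription factor PU.1, rose by 0.99 (SE 0.16, adjusted p = 0.000138) and 0.77 (SE 0.18, adjusted p = 0.00489) in caruncular and intercaruncular tissue. The brightest gene of this list, CEBPB, differed by 0.37 and 0.46 and was not called. Of 4 subunits and partners of the NADPH oxidase, 1 was called in caruncular and 0 in intercaruncular tissue (medians 0.31 and 0.22). NCF4 rose by 0.66 (SE 0.18, adjusted p = 0.0102) in caruncular tissue and differed by 0.31 in intercaruncular tissue, and NCF1, the brightest, differed by 0.35 and 0.01 and was not called.

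Of 4 tested Fc receptors and adaptors, 2 were called in caruncular and 1 in intercaruncular tissue (medians 0.75 and 0.27). FCGR3A, a low-affinity receptor shared by macrophages and NK cells, rose by 1.78 (SE 0.23, adjusted p = 5.77e-06) and 1.69 (SE 0.26, adjusted p = 0.000108). The adaptor chain FCER1G rose by 1.02 (SE 0.14, adjusted p = 9.94e-06) in caruncular tissue and differed by 0.29 (SE 0.23, adjusted p = 0.396) in intercaruncular tissue. The 3 leukocyte integrins were not called by limma, with medians of 0.42 and 0.31, and their brightest gene ITGB2, the beta chain that pairs with ITGAM, differed by 0.42 (SE 0.12, adjusted p = 0.0117) or less than 1.5-fold in caruncular tissue.

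Among 8 scavenger and resident macrophage receptors, 2 were called higher in caruncular and 3 in intercaruncular tissue (medians 0.39 and 0.28). TIMD4, a receptor for phosphatidylserine on resident macrophages, rose by 2.70 (SE 0.25, adjusted p = 4.65e-08) and 1.89 (SE 0.31, adjusted p = 0.000198). The scavenger receptor MSR1 rose by 1.48 (SE 0.25, adjusted p = 0.000165) and 1.14 (SE 0.22, adjusted p = 0.00124), and its second probe gave 0.90 and 0.50, the latter not called. VSIG4, a complement receptor of resident macrophages, differed by 0.80 in caruncular tissue, where it was not called, and rose by 0.61 in intercaruncular tissue, and the brightest, MERTK, differed by 0.42 and 0.33. Among 15 other macrophage and monocyte markers, 7 were called higher in caruncular and 6 in intercaruncular tissue (medians 0.49 and 0.51). SIGLEC1, a sialic acid receptor of macrophages that interferon also induces, rose by 3.35 (SE 0.25, adjusted p = 1.19e-09) and 2.45 (SE 0.25, adjusted p = 2.81e-07). The complement genes C1QB and C1QC rose by 1.79 and 1.24 in caruncular and by 1.23 and 0.89 in intercaruncular tissue, and MPEG1, a pore-forming protein of phagocytes, rose 2.83-fold and 1.97-fold. The brightest, the lysosomal protease LGMN, differed by 0.24 and 0.54 and was not called. No gene of these 6 lists was called lower in pregnant cows in either tissue.

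Markers of other leukocytes were followed in the same way. Of 6 tested pan-leukocyte genes 1 was called in each tissue, the tetraspanin CD53 at 1.71 (SE 0.15, adjusted p = 1.36e-08) and 1.24 (SE 0.18, adjusted p = 5.44e-05), with list medians of 0.20 and 0.25. The brightest, CD48, differed by 0.28 in intercaruncular tissue and by less than 0.01 in caruncular tissue. None of 7 T lymphocyte genes was called by limma in either tissue (medians 0.07 and 0.15), although 1 of them in caruncular tissue had an unadjusted p under 0.05, as did 5763 of the 14717 tested probes, and CD247, the brightest, differed by 0.03 and 0.08. Of 7 NK cell genes 2 were called in caruncular tissue, NKG7 at 0.75 (SE 0.20, adjusted p = 0.00792) and PRF1 at 0.71 (SE 0.13, adjusted p = 0.000574), and 0 in intercaruncular tissue (medians 0.40 and 0.33). Of 5 B lymphocyte and plasma cell genes 0 were called (medians -0.26 and -0.32), and the brightest, JCHAIN, differed by -1.20 (SE 0.58, adjusted p = 0.13) and -0.85 (SE 0.63, adjusted p = 0.358).

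Of 5 granulocyte genes 1 was called in caruncular tissue, S100A12 at 0.99 (SE 0.30, adjusted p = 0.0177), and 0 in intercaruncular tissue (medians 0.45 and 0.43). Of 6 dendritic cell genes 3 were called in each tissue (medians 0.87 and 0.53), namely CCR7, the receptor that guides migration to lymph nodes, at 1.70 and 1.25, LAMP3 of mature dendritic cells at 1.59 and 1.33, and CLEC9A of the cross-presenting subset at 1.18 and 0.85. The brightest of them, CD1E, differed by 0.15 and -0.01. Of 3 mast cell genes HDC, which makes histamine, was called lower in both tissues, at -0.73 and -0.71, and the brightest, KIT, differed by 0.05 in each. The summed signal of the pan-leukocyte list had medians of 32005 in cyclic and 35578 in pregnant cows in caruncular tissue, against 30151 and 40654 in the intercaruncular samples, and that of the T lymphocyte list 11144 and 10525 and then 11778 and 12873. For the dendritic cell list these medians were 9549 and 11692 and then 7654 and 10668. As these sums were not scaled between arrays, their differences between groups also carry differences in array brightness.

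Markers of other tissue cells also differed. Of 5 endothelial genes 2 were called lower in pregnant cows in both tissues, PECAM1 at -1.29 (SE 0.25, adjusted p = 0.000573) and -1.52 (SE 0.22, adjusted p = 4.9e-05) and TEK at -0.61 and -0.75, with list medians of -0.45 and -0.49. The brightest, VWF, differed by -0.29 and -0.14. Of 5 epithelial genes CDH1 and CLDN4 were called higher in both tissues, CLDN4 at 0.95 and 1.10, while KRT18 was called lower in caruncular tissue at -0.86, and the brightest, EPCAM, differed by -0.36 and -0.01 (list medians -0.32 and 0.16). Of 7 stromal genes COL3A1 was called lower in both tissues, at -0.92 and -1.32, COL1A1 and COL1A2 lower in intercaruncular tissue, at -1.01 and -0.84, and PDGFRA higher in caruncular tissue at 0.82 (its second probe was called in both tissues, at 1.37 and 0.78), with list medians of -0.32 and -0.48 and a brightest gene, DCN, at 0.13 and -0.11. The median summed signal of the endothelial list was 38858 in cyclic and 25959 in pregnant cows in caruncular tissue, against 36237 and 28925 in the intercaruncular samples. That of the stromal list was 291264 and 300013 and then 315636 and 236494, and that of the epithelial list 51918 and 42754 and then 62861 and 66322. These sums too were not scaled between arrays. The part of these shifts in the marker differences was not tested.

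Red cell and trophoblast genes were too dim to test. HBB, the brightest of the former, was well above background on 4 of 13 caruncular arrays in each state and on 2 of 10 cyclic and 5 of 12 pregnant intercaruncular arrays. TKDP1, the brightest of the trophoblast genes, was so on 0 of 13 cyclic and 1 of 13 pregnant caruncular arrays and on 0 of 10 and 1 of 12 intercaruncular arrays. The probes of MPO (granulocytes), CD33 (myeloid cells), ALAS2 (red cells) and PAG11 (trophoblast), singled out after their values were seen, were not well above background on any array.

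**Figure D4:**
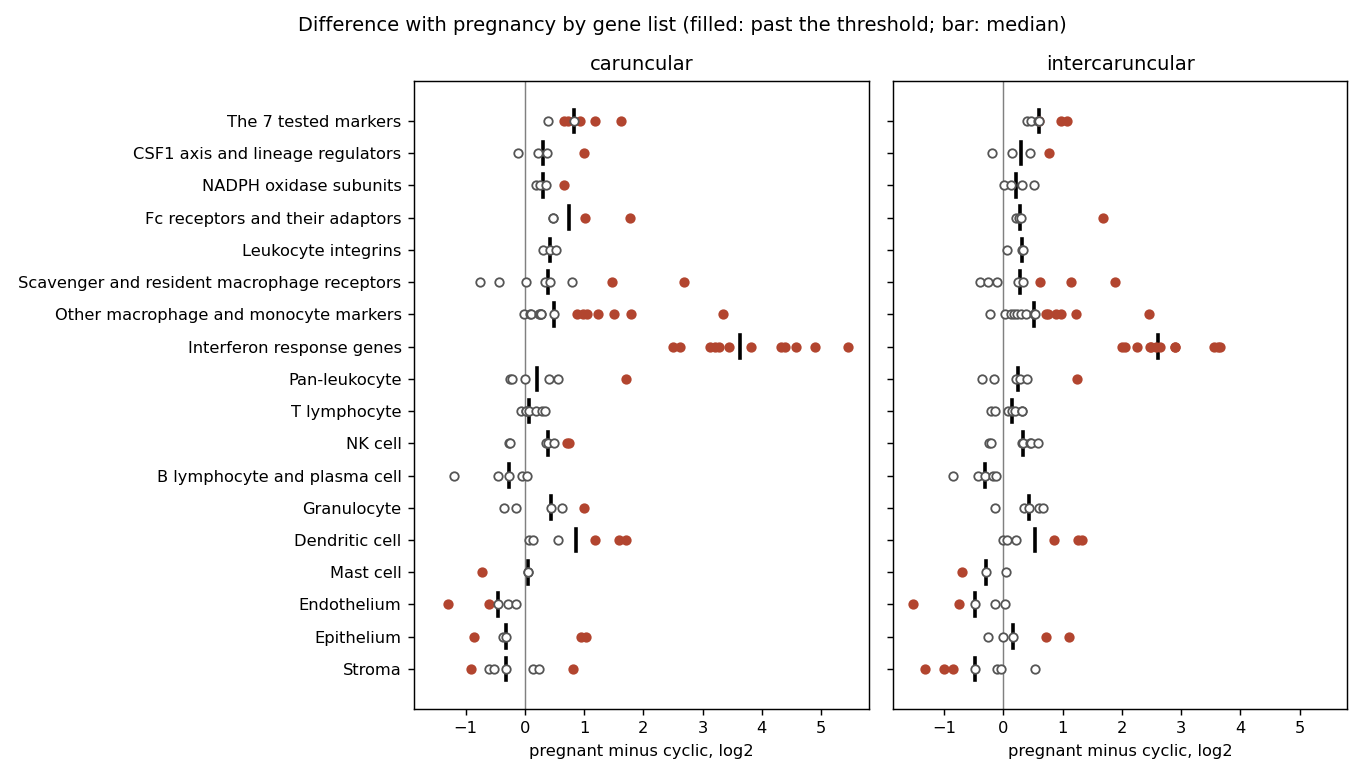
Each dot is 1 gene, placed on the horizontal axis by its difference between pregnant and cyclic cows in log2 units, in caruncular (left) and intercaruncular (right) tissue, with the gene lists as rows. Filled dots passed the threshold of 1.5-fold and adjusted p under 0.05, open dots did not, and black bars are list medians, which were 0.83 and 0.59 for the 7 tested markers, 3.63 and 2.61 for interferon response genes and 0.07 and 0.15 for T lymphocyte genes.

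Likeness between probes was described by Pearson correlation over the 44 samples after each value had lost the mean of its group of tissue and state. The 44 samples share 22 cows and the slides, so these values carry no test. Among the markers the closest pair was FCGR1A and AIF1 (r = 0.71), followed by AIF1 with MRC1 (0.68) and with CYBB (0.67). CD68 was nearly unrelated to CSF1R (0.03) and to FCGR1A (0.03), and its closest marker was CYBB (0.54). The 3 most similar probes of other genes were RNASE6, C1QC and C1QB for CSF1R (0.86, 0.85 and 0.84), CCNB2, SIGLEC1 and SP140 for FCGR1A (0.90, 0.87 and 0.86), and FCGR3A, SPI1 and SNX10 for AIF1 (0.83, 0.81 and 0.79). For CYBB they were GMFG, CYTH4 and NCF4 (0.84, 0.84 and 0.82), for CD68 CCR1, SGCA and GPNMB (0.87, 0.87 and 0.86), for MRC1 FOLR2, IGSF6 and MSR1 (0.79, 0.74 and 0.74), and for CD163 TMEM165, CXCL16 and UMPS (0.71, 0.71 and 0.68).

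Against whole lists, the median correlation of FCGR1A was 0.58 with the 12 interferon response genes, 0.39 with the 15 other macrophage and monocyte markers, 0.62 with the 6 dendritic cell genes and -0.64 with the 5 endothelial genes. Its values ran from 0.25 to 0.77 with the interferon response genes and from -0.56 to 0.87 with the other macrophage and monocyte markers. FCGR1A correlated above 0.5 with 8.50% of all tested probes, and each other tested marker with 0.87% to 2.22%. For CD68 the median was -0.22 with the interferon response genes, 0.08 with the other macrophage and monocyte markers and 0.59 with the 3 leukocyte integrins. CSF1R had 0.39 with the interferon response genes and 0.55 with the other macrophage and monocyte markers. For AIF1 these were 0.36 and 0.28, for MRC1 0.05 and 0.25, for CD163 0.09 and 0.36 and for the CYBB probe 0.21 and 0.49. All 7 had positive medians with the 4 Fc receptors and adaptors, from 0.18 for CD163 to 0.69 for CYBB. With the 7 T lymphocyte genes the medians ran from -0.17 for FCGR1A to 0.36 for CD68.

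**Figure D5:**
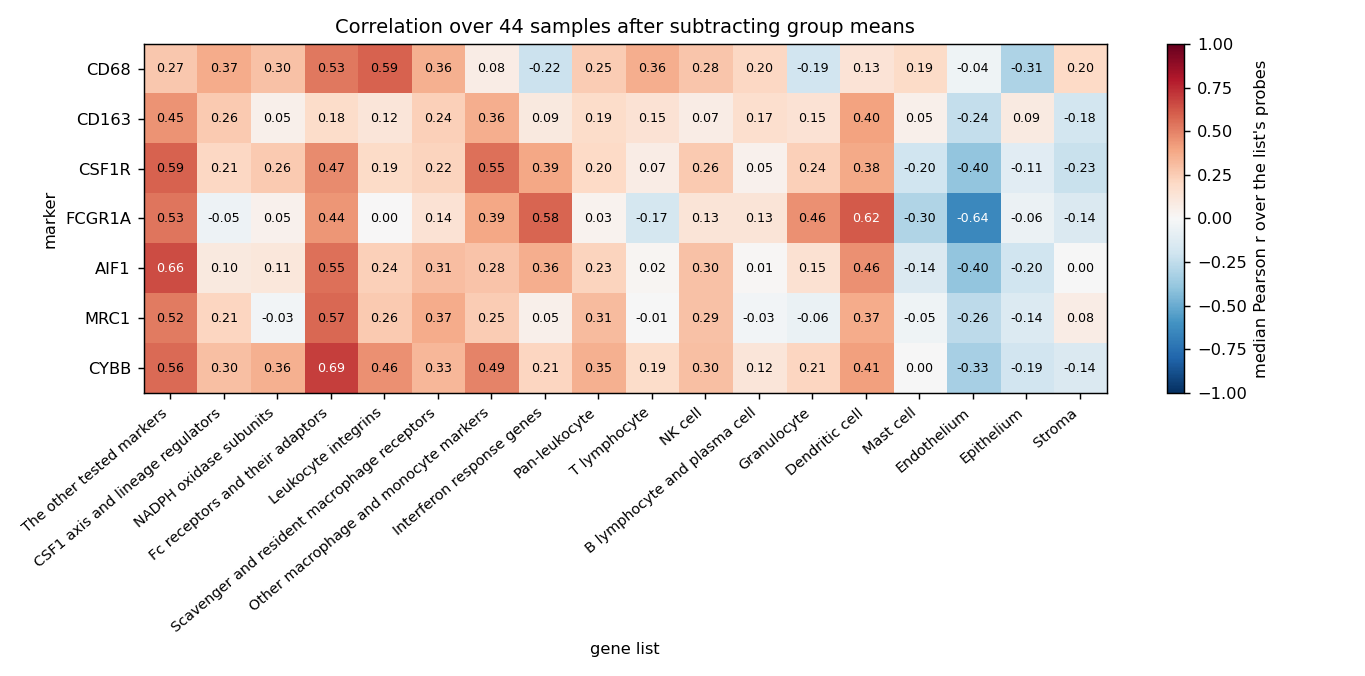
Rows are the 7 tested markers and columns the gene lists, and each cell gives the median Pearson correlation of the marker with the tested probes of the list over 44 samples after group means were subtracted, with red for positive and blue for negative values. FCGR1A had 0.58 with interferon response genes and -0.64 with endothelium, and CD68 had -0.22 with interferon response genes.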

How the data were processed

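Agilent 2-colour arrays of 44 endometrial samples (48 arrays, sample in Cy5, pooled reference in Cy3, no dye swap) were read from the scanner text files. Per the file headers, Feature Extraction 9.5.3.1 gave log10 ratios of background-corrected, dye-normalised signals, and the signals are intensity values. Log10 ratios were converted to log2, spots with an outlier flag were dropped (median 77.5 per array, at most 3267), the 2 or 6 spots of a probe were averaged, the array median was subtracted and repeat arrays were averaged. Probes were tested when a sample signal of at least 80 and a spot well above background were found in at least 22 of 44 samples. This reading of the filter was chosen because it gave the number of probes of an earlier analysis of these data, which is not the analysis of the published study and differs from it in that number. The deposited value table holds log2 ratios: 40 of 48 columns equalled the log2 ratio of the mean signals within 1e-05, the other 8 differed by up to 1.33, and column medians ran from -0.028 to 0.059. Of these 8, 4 were the intercaruncular arrays of cows Pregnant_3956, Pregnant_1943, Pregnant_3957 and Pregnant_926, which filled 1 slide. They differed by 1.03 to 1.33, and their signal over background was 8.96 to 10.3. All 4 cows were fertile, and all but Pregnant_3956 had a large embryo. The others were both arrays of Pregnant_9790 and the repeat arrays of Pregnant_926 and Non-Pregnant_9778. Leaving out the slide of those 4 arrays was not tried. The deposited table served as an alternative.

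Comparisons used limma 3.58.1 in R 4.3.3 with version 1.17.8 of data.table, and figures matplotlib 3.10.9 in Python 3.11.15. Embryo size, fertility label and the difference between tissues in the pregnancy effect were called on adjusted p alone. The comparisons share samples and are not independent. In the 22 cows, deviations of the 2 tissues from their group means correlated at 0.11 to 0.87 (median 0.61), so cow was tried as a block.

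The description or gene name of 17615 probes held a term in the form of a symbol. An accession of 3524 probes and a gene number of 10098 were in the reference list of genes. The most similar probes were named by accession or gene number where these gave a symbol, and otherwise by description or gene name. List probes whose accession or gene number named another gene were not used, whereas the CYBB probe was kept. Named genes were the 9 markers, up to 4 called genes with the largest change per list and the brightest gene of each list. Where a gene had several probes, the brightest tested one stood for it. The markers and lists were chosen with earlier results of these data known. After the results were seen, 2 genes withheld for evaluation were taken out of 2 lists, and they are not reported here. Alternatives covered normalisation, filter, repeat arrays, test, slide, scan, cow and covariates.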

Additional observations from a re-analysis of the deposited data

Results flagged for a closer look

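In 90 groups of 5 to 10 samples, 7 had a highest or lowest value standing apart from the others by Dixon's criterion, and chance gives about 1 group in 20. In caruncular tissue of cyclic cows, FCGR1A was 0.03 in cow Non-Pregnant_9786, with the next value at -1.11. In intercaruncular tissue of cyclic cows, AIF1 was -0.29 in cow Non-Pregnant_9960, with the next at -0.91, and ITGAM was -2.74 in cow Non-Pregnant_9786, with the next at -1.17, on arrays where its probe was not well above background. In caruncular tissue of cows with a large embryo, AIF1 was 0.94 in cow Pregnant_3957, with the next at 0.43. In intercaruncular tissue of cows with a large embryo, FCGR1A was -1.29 in cow Pregnant_9790, with the next at 0.56. In intercaruncular tissue of cows with a small embryo, cow Pregnant_3956 had FCGR1A at 0.63 and AIF1 at 1.18, with the next values at -0.43 and -0.39. Its array was the only one of that group on its slide. The 3 cows with a large embryo on the slide had means of 1.03 for FCGR1A and 0.44 for AIF1. The cause of these values was not tested.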

How the results depend on the processing

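The number of markers called changed most with slide as a fixed block and with single cows left out. With slide as a fixed block it was 0 for pregnancy in caruncular tissue (5 otherwise), 0 for pregnancy in intercaruncular tissue (3 otherwise) and 1, FCGR1A, for embryo size in intercaruncular tissue (0 otherwise). The pregnancy estimates of that block rest on 1 cyclic cow per tissue, and its fertility estimates on 1 slide per tissue. For pregnancy in intercaruncular tissue the count moved under 6 of 13 alternatives, to 0 as above, to 2 with slide as a random block, where CSF1R was lost, and to 4 in the 4 cases given below for CYBB. Without the filter on signal ITGAM was also called, for pregnancy in caruncular tissue (6 markers in place of 5) and between tissues in pregnant cows (2 in place of 1, with CD163), although its probe was well above background on 5 of 13 caruncular arrays of cyclic and 3 of 12 intercaruncular arrays of pregnant cows. With each cow left out in turn the count ran from 4 to 5 for pregnancy in caruncular tissue, from 2 to 4 for pregnancy in intercaruncular tissue, from 0 to 0 for embryo size in caruncular tissue and from 0 to 3 for embryo size in intercaruncular tissue, where the 3 came without cow Pregnant_9790 and 1878 probes in place of 545 were called (34 to 644 without any 1 of the others). The cause was not tested beyond this.

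With the left-out cows set aside, the 7 markers under each alternative kept direction and side of the threshold in 86 of 91 cases for pregnancy in caruncular tissue (the other 5 all under a fixed slide block) and 82 of 91 in intercaruncular tissue, in all 63 for each of the 3 comparisons that involve both tissues, in 66 and 69 of 70 for embryo size and in 67 and 58 of 70 for fertility label (caruncular first). The CYBB probe in intercaruncular tissue passed 1.5-fold, at 0.60, with normexp and loess, the deposited table, the median over tested probes or the first 2 scan sessions. Subtracting no median changed no value, since the median was 0 on each array. The methods' t-test called 5 markers for pregnancy in caruncular and 3 in intercaruncular tissue.

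Some effects changed sign, all of them uncalled. Under a fixed slide block CD163 for pregnancy in intercaruncular tissue was -0.19 and for embryo size in caruncular tissue -0.060, fertility in caruncular tissue was -0.24 for CSF1R, -0.12 for AIF1 and 0.15 for MRC1, and fertility in intercaruncular tissue was -0.57 for CD68, -1.11 for CD163, -0.88 for CSF1R, -0.72 for FCGR1A and -0.82 for AIF1. A random slide block gave -0.020 for CD163 and embryo size in caruncular tissue, and fertility in intercaruncular tissue was -0.11 for CD68, -0.13 for CD163 and -0.16 for CSF1R. With normexp and loess CD163 for embryo size in caruncular tissue was -0.0041, and fertility in intercaruncular tissue was -0.030 for CD68 and -0.0056 for CSF1R. With the deposited table CD163 for embryo size in caruncular tissue was -0.000597. With the median over tested probes CD68 for fertility in intercaruncular tissue was -0.0028, and with embryo size as a covariate CYBB there was 0.048. With each cow left out, embryo size ran from -0.67 to 0.059 for CD68 and from -0.16 to 0.14 for CD163 in caruncular tissue, and from -0.016 to 0.21 for CD68 in intercaruncular tissue. The cause was not tested.

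With cow as a block the difference between tissues in the pregnancy effect was called for 152 probes (fixed) or 435 (random) in place of 3, with 0 markers by limma in each.

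The scan session block, leaving out each cow for pregnancy, keeping spots with an outlier flag, cow as a random block, a fixed slide term in the embryo and fertility comparisons, and the median over tested probes were chosen after seeing the data. A planned search for motifs in promoters was not run, since no promoter sequences were at hand. Signal over background limits CSF1 and ITGAM, which were outside the filter, and the 4 probes described as CD163 isoforms.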
